A study of Mus musculus with 18 samples.

Results

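The genes described here are the enzymes and regulators with which the liver makes fatty acids from sugar, and their response to interleukin-1β (IL-1β) in 3 RNA-Seq library kits. The members are the 10 genes Srebf1, Mlxipl, Acly, Acaca, Acacb, Fasn, Elovl6, Scd1, Me1 and Thrsp, found by gene symbol among the 21018 genes that occur in at least 1 of the 3 count tables. All 10 were present in each table and passed the minimum of 1 count. Livers came from 12-week-old male C57/B6J mice with free access to food, taken 4 hours after an intraperitoneal injection. Mice I9579, I9582 and I9583 received 20 µg/kg of IL-1β, an inflammatory cytokine to which the liver answers with acute-phase proteins, and mice S9574, S9575 and S9576 received saline, where I and S mark the treatment. RNA of each of the 6 livers entered all 3 kits, which gives 18 libraries with 3 mice per treatment and kit. TruSeq is a stranded poly(A) kit, used here with 200 ng of RNA, Pico is a stranded total RNA kit used with 1.7 to 2.6 ng, and V4 is an unstranded poly(A) kit used with 0.8 to 1.3 ng. The kits also differed in sequencer, read length (125 bp for TruSeq and 150 bp for Pico and V4) and time of sequencing, and the effect of a kit cannot be told apart from these. Both treatments are present in every kit, so the question asked of each gene was whether its count differed between IL-1β and saline within a kit, and whether that response differed between kits.

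Lipogenesis starts from citrate that leaves the mitochondria. ATP citrate lyase (Acly) cuts it to acetyl-CoA, the acetyl-CoA carboxylases (Acaca and Acacb) make malonyl-CoA, fatty acid synthase (Fasn) builds palmitate, Elovl6 lengthens it and Scd1 puts in a double bond, with NADPH supplied in part by malic enzyme (Me1). In liver the genes of these enzymes are switched on after a meal by SREBP-1c, a product of Srebf1 that answers to insulin, and by ChREBP, the product of Mlxipl, which answers to sugar. Thrsp (Spot 14) is a small nuclear protein that rises with lipogenesis and is encoded by a target of both.

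The values are the authors' gene counts, in whole reads, after resampling to an equal depth within each kit. The libraries held 12348864 to 12858237 counts in TruSeq, 4024632 to 4134070 in Pico and 12013453 to 12352473 in V4, so that counts of a gene can be compared directly between the libraries of a kit. The label of the Pico table does not state which of the study's Pico preparations it holds. Differences were tested with limma-voom over all genes of a kit and called at a Benjamini-Hochberg adjusted p of at most 0.05. Log2 fold changes are IL-1β minus saline, each ± its standard error, with n = 3 mice per treatment. Over all genes the median log2 fold change was -0.17 in TruSeq, -0.12 in Pico and -0.22 in V4, and with TMM scaling factors it was -0.01, 0.02 and -0.06. Values of 3 libraries are given in the order of mice I9579, I9582 and I9583 for IL-1β and S9574, S9575 and S9576 for saline. The p-values measure the spread among 3 mice of a treatment, and in bulk liver fewer cells of a type and less RNA per cell cannot be told apart.

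Both regulators and the first committed enzyme of the pathway fell in every kit, and no member rose in any. In TruSeq 3 of the 10 members were called lower, against 21.8% of all genes tested, and 0 were called higher, against 12.3%. In Pico 5 of 10 were called lower, against 10.8% of all genes, and 0 higher, against 6.78%. In V4 5 of 10 were called lower, against 7.41% of all genes, and 0 higher, against 3.6%. Srebf1, Mlxipl and Acaca were called lower in all 3 kits, as were 5.35% of the 16184 genes present in all tables. Fasn and Acly were called lower in Pico and V4. Acacb, Elovl6, Scd1, Me1 and Thrsp were called in none. The median log2 fold change of the members was -0.76 in TruSeq, -0.68 in Pico and -0.83 in V4. All IL-1β libraries lay below all saline libraries for 4 of 10 members in TruSeq (29.3% of all genes), 3 in Pico (19.2%) and 5 in V4 (18.2%).

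**Figure D1:**
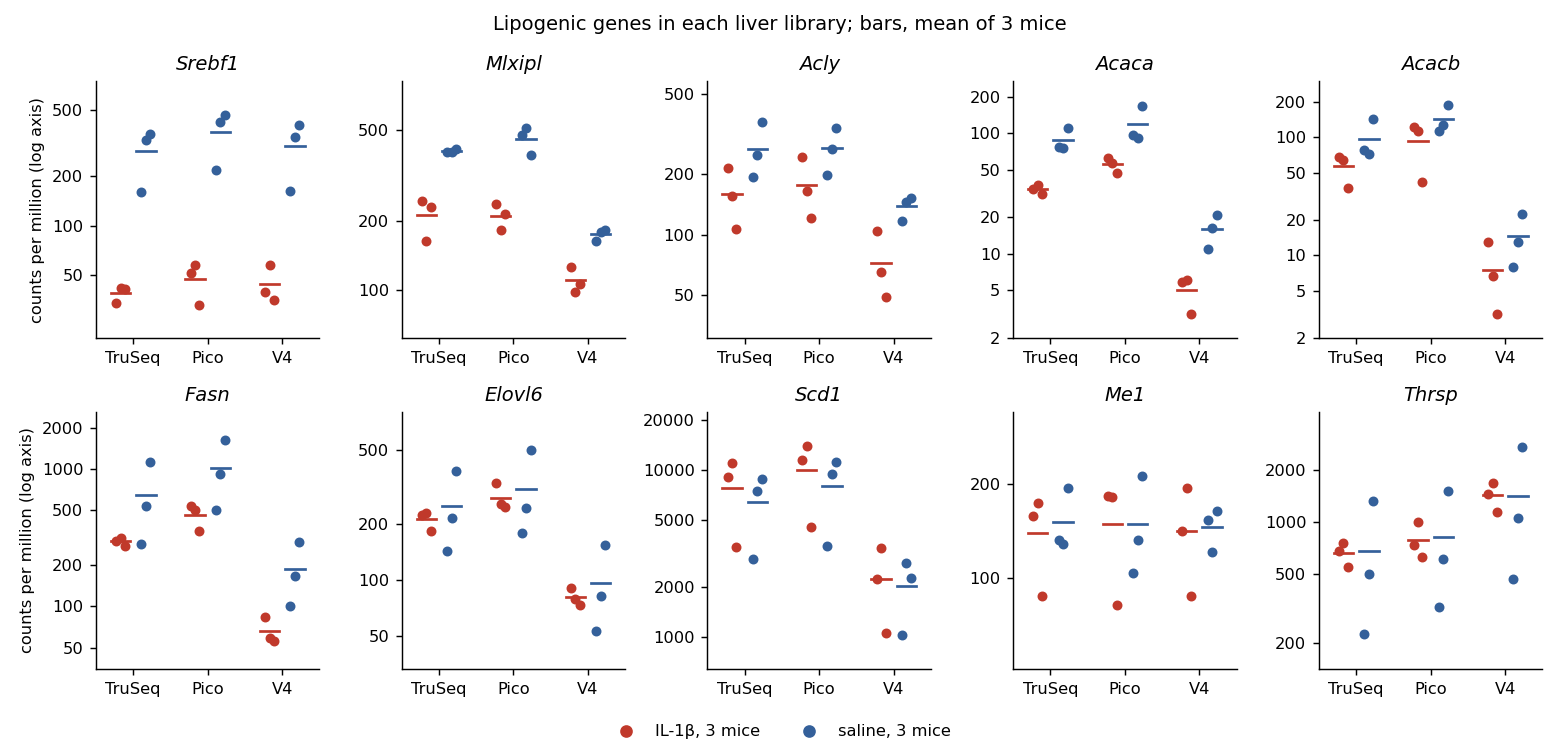
CPM (counts scaled to the library total, log axis) of each of the 10 genes in the 18 liver libraries, by kit, with IL-1β mice in red, saline mice in blue and a bar at the mean of 3 mice. Srebf1, Mlxipl and Acaca show no overlap between treatments in any kit, while Elovl6, Scd1, Me1 and Thrsp overlap in all 3.

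Srebf1 (ENSMUSG00000020538, mm9 chromosome 11, 60012591 to 60036083, minus strand) encodes SREBP-1a and SREBP-1c from separate starts, which a gene count does not separate. In TruSeq its counts were 420, 515 and 509 in the IL-1β libraries and 2033, 4233 and 4624 in the saline libraries. The Pico counts were 210, 231 and 134 against 880, 1734 and 1937, and in V4 they were 481, 691 and 425 against 1955, 4157 and 5022. The highest IL-1β library lay below the lowest saline library in every kit. The fitted log2 change was -2.79 ± 0.28 in TruSeq (adjusted p = 7.86e-05), -2.91 ± 0.30 in Pico (adjusted p = 4.1e-06) and -2.72 ± 0.35 in V4 (adjusted p = 0.000928), or 6.91-fold, 7.54-fold and 6.58-fold lower. This was the largest change among the members in each kit, and in TruSeq only 0.829% of all genes had a lower log2 fold change. The gene shares 109 bases of exon with Rai1 on the opposite strand, which matters for V4 alone because V4 counts both strands. Rai1 had a mean of 62.7 counts over the 6 V4 libraries of both treatments. Srebf1 had 3711 ± 1581 (SD, n = 3) in the V4 saline libraries and 532 ± 140 in the V4 IL-1β libraries. How many V4 reads of Srebf1 came from Rai1 was not tested.

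Mlxipl (ENSMUSG00000005373, chromosome 5, 135582761 to 135614254, plus strand) was the member with the smallest spread between mice. In TruSeq its counts were 3045, 2022 and 2861 after IL-1β and 5082, 5134 and 5342 after saline. For Pico the counts were 959, 735 and 872 against 1943, 2107 and 1613, and in V4 they were 1544, 1190 and 1286 against 1972, 2170 and 2252. The treatments did not overlap in any kit. On the log2 scale the change was -0.95 ± 0.14 in TruSeq (adjusted p = 0.000714), -1.11 ± 0.12 in Pico (adjusted p = 9.18e-06) and -0.67 ± 0.16 in V4 (adjusted p = 0.0207). In V4 the call was lost with TMM factors, with edgeR and without mouse I9582, I9583 or S9575.

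Stretches of genome before annotated starts of Srebf1, Mlxipl, Acaca, Fasn and Thrsp are shown because SREBP-1c and ChREBP act through short DNA elements. They are the 250 bases before each start in RefSeq's annotation of GRCm38.p6, written 5′ to 3′ on the strand of the gene, with capitals for matches to the sterol response element TCACNCCAC, the E-box CACGTG or the NF-Y box CCAAT on either strand. RefSeq promoters were matched to 9 of the 10 members (all but Scd1), 13 promoters in all. The stretch of Acly, which fell in Pico and V4, is not shown, nor are those of the members not called other than Thrsp. Of the 3 Srebf1 starts the one shown is the last along the gene, chr11:60210472-60210721. The only Acaca start matched lies further from the mm9 gene start (83943174) than the builds shift for Srebf1, Acly and Fasn on that chromosome. The Acaca stretch thus lies inside the gene, and its lack of marks does not describe the first start of Acaca.
Srebf1: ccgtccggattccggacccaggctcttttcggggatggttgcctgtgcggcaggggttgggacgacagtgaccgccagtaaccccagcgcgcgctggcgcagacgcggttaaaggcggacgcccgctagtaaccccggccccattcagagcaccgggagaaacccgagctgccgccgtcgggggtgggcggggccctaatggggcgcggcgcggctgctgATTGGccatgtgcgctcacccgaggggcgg
Mlxipl, first start at chr5:135089640-135089889: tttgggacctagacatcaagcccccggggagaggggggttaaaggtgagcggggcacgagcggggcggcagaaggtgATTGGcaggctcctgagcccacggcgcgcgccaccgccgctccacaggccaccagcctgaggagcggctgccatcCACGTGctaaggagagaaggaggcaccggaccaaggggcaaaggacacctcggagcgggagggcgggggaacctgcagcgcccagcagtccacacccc
Mlxipl, second start at chr5:135106641-135106890: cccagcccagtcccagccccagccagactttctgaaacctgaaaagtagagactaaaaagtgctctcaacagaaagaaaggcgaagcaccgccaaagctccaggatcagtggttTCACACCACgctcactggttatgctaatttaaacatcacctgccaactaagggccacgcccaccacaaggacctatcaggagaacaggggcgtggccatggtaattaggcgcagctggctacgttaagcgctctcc
Acaca, chr11:84195188-84195437: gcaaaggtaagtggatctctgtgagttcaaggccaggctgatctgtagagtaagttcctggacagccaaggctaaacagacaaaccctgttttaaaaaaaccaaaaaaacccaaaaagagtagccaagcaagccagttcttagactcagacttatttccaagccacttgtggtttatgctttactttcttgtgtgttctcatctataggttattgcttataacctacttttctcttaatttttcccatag
Fasn, chr11:120824548-120824797: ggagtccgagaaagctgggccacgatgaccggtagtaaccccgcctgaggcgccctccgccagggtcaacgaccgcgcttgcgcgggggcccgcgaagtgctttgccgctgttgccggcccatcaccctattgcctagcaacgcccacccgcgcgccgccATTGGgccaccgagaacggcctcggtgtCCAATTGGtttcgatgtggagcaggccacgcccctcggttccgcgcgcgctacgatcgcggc
Thrsp, chr7:97417551-97417800, a member whose count was not called: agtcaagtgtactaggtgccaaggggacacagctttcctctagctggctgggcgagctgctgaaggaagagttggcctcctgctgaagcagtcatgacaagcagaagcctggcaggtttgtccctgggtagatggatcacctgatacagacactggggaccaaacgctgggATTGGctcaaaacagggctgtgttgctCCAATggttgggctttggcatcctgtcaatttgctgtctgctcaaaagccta

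Over the whole 300-base windows, which also hold 50 bases after the start, a sterol response element was found in 1 of the 13 promoters, that of the second Mlxipl start, and in 1.24% of all 32851 promoters. The E-box was found in 1 as well, that of the first Mlxipl start, against 7.15% of all promoters. NF-Y boxes stood in 8 of 13, against 37.4%, among them the Fasn, Thrsp and Acly promoters, and GC boxes (GGGCGG) in 5 of 13, against 35.7%. The spaced carbohydrate response element was in 0 of 13 and 0.0822% of all promoters, and the liver X receptor element DR4, searched with 1 mismatch, in 0 of 13 and 0.25%. Elements with more mismatches or outside the windows are missed by such a search, so 0 matches do not show that a gene lacks the element. NF-Y boxes were present both before members that fell (Srebf1, Mlxipl and Fasn) and before members called in no kit (Acacb, Me1 and Thrsp). These matches describe letters in a window and were not tested for binding.

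Of the enzymes, Acaca (ENSMUSG00000020532, chromosome 11, 83943174 to 84215153, plus strand), the carboxylase whose malonyl-CoA feeds synthesis, fell in every kit. Its counts in TruSeq were 427, 456 and 389 after IL-1β against 975, 973 and 1428 after saline. In Pico they were 253, 229 and 190 against 397, 375 and 704, and in V4 they were 70, 72 and 38 against 131, 197 and 261. No IL-1β library reached a saline library in any kit. IL-1β minus saline gave a log2 fold change of -1.34 ± 0.16 in TruSeq (adjusted p = 0.000195), -1.06 ± 0.22 in Pico (adjusted p = 0.00265) and -1.70 ± 0.40 in V4 (adjusted p = 0.0218). The call in TruSeq held without any 1 mouse (adjusted p of 0.00112 to 0.00391), while that in Pico was lost without mouse I9582 or I9583 (adjusted p up to 0.0652) and that in V4 without mouse I9579, I9582, I9583 or S9575 (adjusted p up to 0.0957).

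Acacb (ENSMUSG00000042010, chromosome 5, 114596544 to 114700770, plus strand), whose malonyl-CoA at the mitochondria holds back fat burning, had lower means after IL-1β but was called in no kit. The TruSeq counts were 849, 800 and 458 against 989, 920 and 1830, which did not overlap. The Pico counts were 496, 456 and 170 against 459, 528 and 777, and the V4 counts were 157, 80 and 38 against 95, 156 and 278, and in both kits the treatments overlapped. The log2 fold change was -0.76 ± 0.29 (adjusted p = 0.0662), -0.74 ± 0.29 (adjusted p = 0.0912) and -1.03 ± 0.52 (adjusted p = 0.257) in TruSeq, Pico and V4. The 95% interval in TruSeq had its upper end at -0.12. The 2 carboxylases thus had values in the same direction, and only Acaca passed the test; the difference between the genes was not tested.

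Fasn (ENSMUSG00000025153, chromosome 11, 120667254 to 120685492, minus strand), the enzyme that builds palmitate, was called lower in both low-input kits. In TruSeq its counts were 3748, 3915 and 3432 after IL-1β against 3608, 6849 and 14575 after saline. The Pico counts were 2191, 2034 and 1428 against 2072, 3787 and 6740, and in V4 they were 1027, 713 and 674 against 1217, 2016 and 3622. Saline mouse S9574 lay beside the IL-1β mice in TruSeq and Pico and above them in V4, and saline mouse S9576 was the highest in every kit. The fitted log2 change was -0.90 ± 0.39 in TruSeq (adjusted p = 0.104), -0.99 ± 0.29 in Pico (adjusted p = 0.0246) and -1.38 ± 0.34 in V4 (adjusted p = 0.0265). Without mouse S9574 the TruSeq change was called (adjusted p = 0.0206). The Pico call was lost with DESeq2 and without mouse I9579, I9582, I9583, S9575 or S9576, and the V4 call without mouse I9582, I9583, S9575 or S9576.

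Acly (ENSMUSG00000020917, chromosome 11, 100337667 to 100389314, minus strand), which makes the acetyl-CoA, had counts of 2674, 1913 and 1316 against 2434, 3178 and 4662 in TruSeq. For Pico the counts were 980, 662 and 490 against 808, 1098 and 1407, and in V4 they were 1263, 788 and 588 against 1409, 1754 and 1882. The treatments overlapped by IL-1β mouse I9579 in TruSeq and Pico and did not overlap in V4. On the log2 scale the change was -0.76 ± 0.27 in TruSeq (adjusted p = 0.0524), -0.63 ± 0.21 in Pico (adjusted p = 0.0450) and -0.99 ± 0.25 in V4 (adjusted p = 0.0265). The value in TruSeq was called without mouse I9579 (adjusted p = 0.0356). The Pico call was lost with TMM factors, with DESeq2 and without any mouse but I9579, and the V4 call without any mouse but I9579.

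The enzymes that finish the chain gave no call. Elovl6 (ENSMUSG00000041220, chromosome 3, 129235304 to 129341413, plus strand), which takes palmitate to stearate, had counts of 2770, 2841 and 2274 against 1813, 2768 and 4965 in TruSeq. In Pico they were 1336, 1027 and 994 against 726, 1003 and 2061, and in V4 they were 1098, 954 and 889 against 640, 992 and 1894. The IL-1β values lay inside the range of the saline mice in all 3 kits. IL-1β minus saline gave a log2 fold change of -0.12 ± 0.29 in TruSeq, -0.02 ± 0.25 in Pico and -0.12 ± 0.31 in V4, with adjusted p of 0.786, 0.969 and 0.843. The 95% interval ran from -0.76 to 0.53 in TruSeq, so a change of the size seen for Acaca lies outside it. Without mouse S9574 the TruSeq value was -0.45 and without S9576 it was 0.26.

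Scd1 (ENSMUSG00000037071, chromosome 19, 44468941 to 44482199, minus strand), which desaturates stearate to oleate, was the most abundant member in reads. Its counts in TruSeq were 112173, 136574 and 42835 after IL-1β against 37246, 96401 and 113796 after saline. The Pico counts were 46747, 56195 and 18467 against 14383, 38754 and 45992, and in V4 they were 26981, 41267 and 12684 against 12267, 33598 and 27754. One mouse of each treatment, I9583 and S9574, was low in every kit, and the treatments overlapped. The log2 fold change was 0.27 ± 0.47 in TruSeq, 0.33 ± 0.36 in Pico and 0.11 ± 0.41 in V4, with adjusted p of 0.684, 0.603 and 0.893. The 95% interval in TruSeq ran from -0.78 to 1.32, and without S9574 or I9583 the value there was -0.22 or 0.78. The near copy Scd2 had at most 129 counts in a TruSeq library, and how the authors' counting split reads between such copies was not tested.

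Me1 (ENSMUSG00000032418, chromosome 9, 86474970 to 86589947, minus strand) had counts of 1956, 2138 and 1084 against 1669, 1636 and 2492 in TruSeq. For Pico the counts were 737, 729 and 330 against 422, 544 and 876, and in V4 they were 1719, 2343 and 1051 against 1834, 1459 and 2019. The treatments overlapped and mouse I9583 was the lowest of the 6 in every kit. The fitted log2 change was -0.15 ± 0.25, -0.04 ± 0.27 and -0.11 ± 0.26 in TruSeq, Pico and V4, with adjusted p of 0.665, 0.947 and 0.820. Without mouse I9582 the TruSeq value was -0.34 and without I9583 it was 0.15.

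Thrsp (ENSMUSG00000035686, chromosome 7, 104561448 to 104566240, minus strand) varied most among saline mice. Its counts in TruSeq were 8467, 9291 and 6810 after IL-1β against 2850, 6379 and 16995 after saline. In Pico they were 2980, 4039 and 2539 against 1317, 2528 and 6251, and in V4 they were 17617, 20271 and 13834 against 5613, 12794 and 33476. All IL-1β values lay between the lowest and the highest saline mouse. On the log2 scale the change was 0.31 ± 0.49, 0.21 ± 0.34 and 0.35 ± 0.46 in TruSeq, Pico and V4, with adjusted p of 0.655, 0.705 and 0.691. The 95% interval in TruSeq, whose lower end was -0.79, does not include a fall of the size seen for Srebf1 or Acaca. Without mouse S9574 the TruSeq value was -0.31 and without S9576 it was 0.97, neither of them called.

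**Figure D2:**
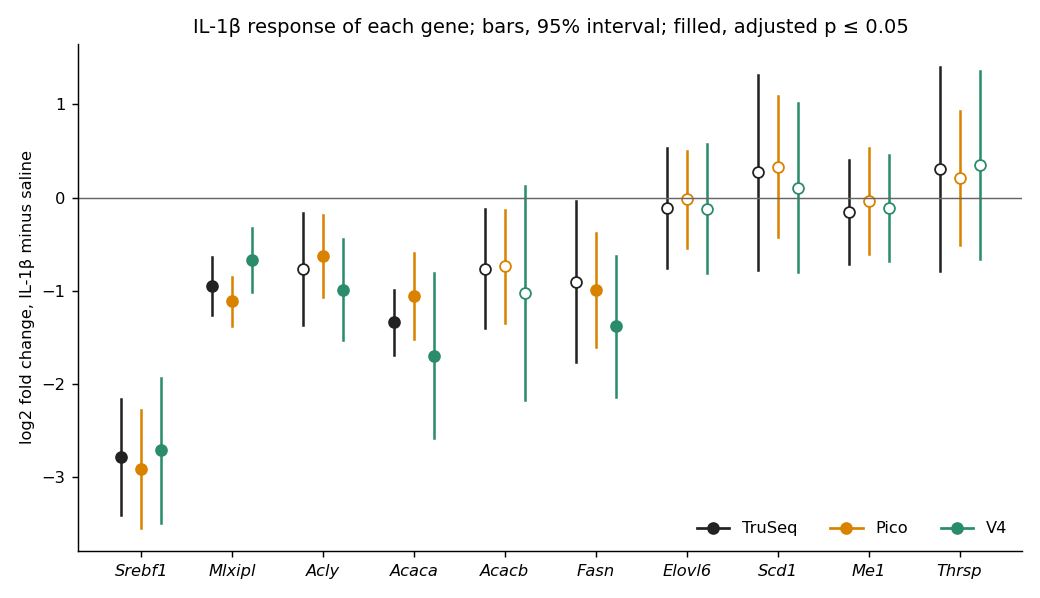
Log2 fold change (IL-1β minus saline) of each gene in TruSeq, Pico and V4, with its 95% interval from the limma-voom fit; filled points were called at an adjusted p of at most 0.05. The 3 Srebf1 points lie between -2.91 and -2.72, and the intervals of Elovl6, Scd1, Me1 and Thrsp include 0 in every kit.

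The response of the members was next compared between kits, as the interaction of kit and treatment over the 12 libraries of both kits. None of the 10 members was called in any of the 3 pairs, as was 0% of all genes. An unadjusted p below 0.05 was found for 945 of 17207 genes (Pico and TruSeq), 1090 of 17147 (V4 and TruSeq) and 900 of 16395 (Pico and V4). A share of 0.05 would lie there if no response differed, so these numbers do not count kit differences. With DESeq2 4, 72 and 17 genes were called and again no member. Without mouse S9576 the calls over all genes went from 0 to 57 between V4 and TruSeq and from 0 to 39 between Pico and V4, with no member among them. Differences of the members ran from -0.48 to 0.64 on the log2 scale, with adjusted p of 0.890 or more and 95% intervals of ±0.41 to ±1.70. When the libraries of a liver were paired by a replicate block for the mouse, the intervals narrowed to ±0.05 to ±0.77 and the lowest adjusted p was 0.664. The blocked intervals of Fasn (V4 minus TruSeq, and Pico minus V4 at 0.06 to 0.69) and of Mlxipl (V4 minus TruSeq at 0.0013 to 0.55, and Pico minus V4 at -0.79 to -0.10) did not include 0, before adjustment over all genes. The lowest unadjusted p was that of Mlxipl between Pico and V4 (0.0446), with a log2 fold change of -1.11 in Pico and -0.67 in V4, a difference of -0.45 (95% interval -0.88 to -0.01, adjusted p = 0.890). For Srebf1 the difference was -0.12 (-1.16 to 0.91) between Pico and TruSeq and 0.07 (-1.06 to 1.21) between V4 and TruSeq. With the block its intervals were -0.48 to 0.29 and -0.30 to 0.46, which leave room for unequal responses of that size. Fasn and Acly were called in Pico and V4 and not in TruSeq, but the difference itself was not called. The Fasn response differed by -0.09 between Pico and TruSeq (adjusted p = 0.994) and by -0.48 between V4 and TruSeq (adjusted p = 0.999), where the block gave -0.42 (95% interval -0.82 to -0.02, adjusted p = 0.664). That of Acly differed by 0.13 (adjusted p = 0.987) and -0.23 (adjusted p = 0.999), and by 0.14 and -0.20 with the block.

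The spread among mice of 1 treatment was larger for most members than for the typical gene, and it was the same mice that stood high or low in each kit. Over the 8960 genes whose mean count reached 20 in each of the kits, the median SD of log2 CPM (counts scaled to the library total) within treatments was 0.16 in TruSeq, 0.25 in Pico and 0.33 in V4. The members had SDs of 0.22 to 0.92 in TruSeq, 0.20 to 0.88 in Pico and 0.14 to 0.92 in V4. In TruSeq 8 of 10 members were at or above the 90th percentile of these genes, in Pico 6 and in V4 3. Mlxipl was the steadiest in all 3 kits (0.22, 0.20 and 0.14), and Thrsp in TruSeq and V4 and Scd1 in Pico the most variable.

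The order of the 3 saline mice was the same in all kits for 5 of 10 members (Fasn, Acly, Elovl6, Srebf1 and Thrsp, each with S9574 lowest and S9576 highest), against 8.91% of the 8960 genes. The highest saline mouse exceeded the lowest in TruSeq CPM 5.87-fold for Thrsp, 3.98-fold for Fasn, 3.01-fold for Scd1, 2.70-fold for Elovl6 and 2.24-fold for Srebf1, and 1.04-fold for Mlxipl. Mouse S9576 was the highest saline mouse in all 3 kits for 8 of 10 members, against 7.53% of genes. Among the IL-1β mice the order was the same in all kits for 5 of 10 (Acacb, Acly, Scd1, Mlxipl and Thrsp), against 9.15%, and mouse I9583 was the lowest in all kits for 8 of 10, against 12.4%. The 2 other members were Srebf1, where I9583 was the lowest in Pico and V4 but not in TruSeq, and Mlxipl, where I9582 was the lowest in every kit. These orders are a description, chosen after the values were seen. The libraries of a mouse come from 1 liver, so that agreement among kits does not add mice.

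**Figure D3:**
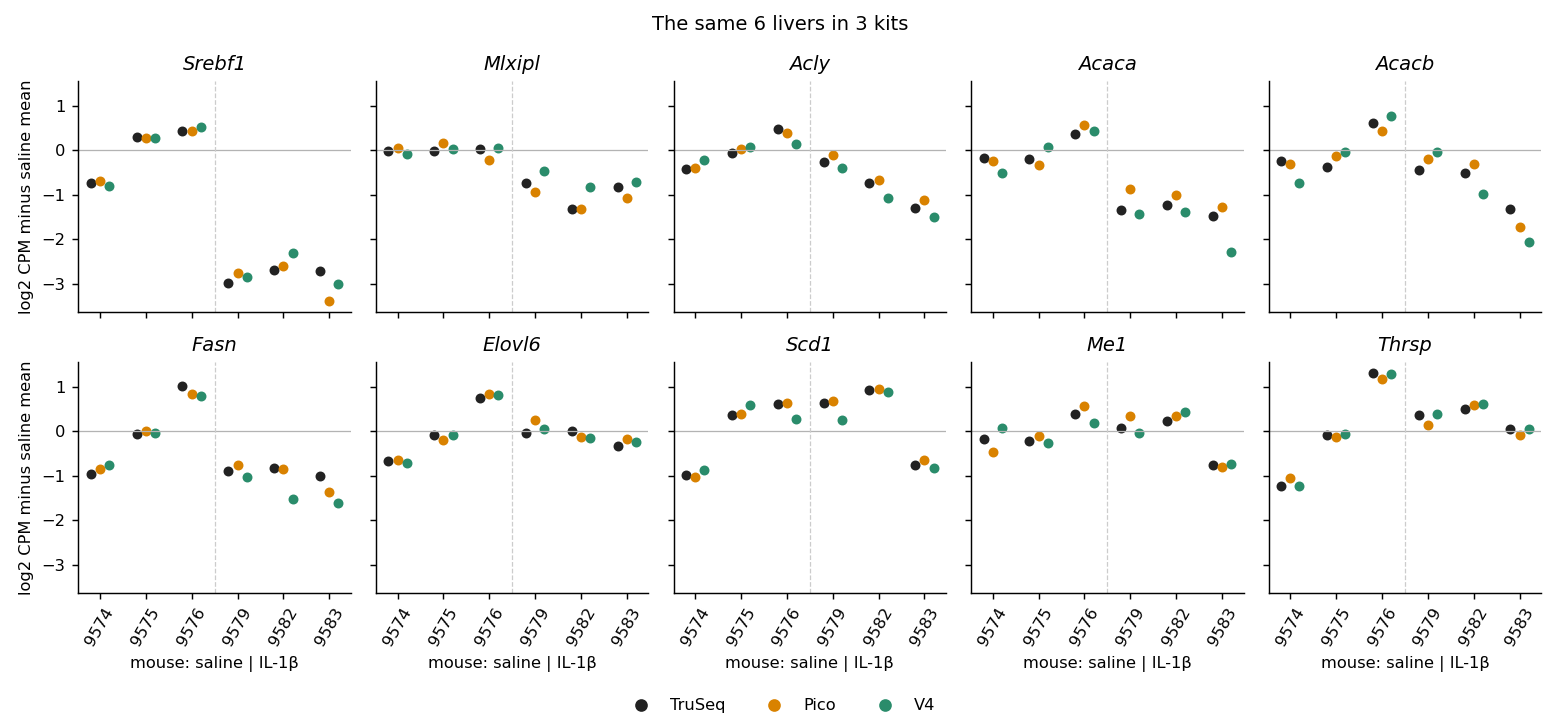
Log2 CPM of each gene in each of the 6 mice, minus the mean of the 3 saline mice of the same kit, with TruSeq in black, Pico in orange and V4 in green and saline mice left of the dashed line. The points of the 3 kits follow each other within a mouse, with S9574 low and S9576 high for Fasn, Elovl6 and Thrsp and I9583 low for Scd1, Me1 and Acly.

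Levels of the members can be set beside each other only per length. In the saline libraries of TruSeq Scd1 had the highest level, 1332 ± 641 (SD, n = 3) CPM per kb of exon, followed by Thrsp at 534 ± 447. Mlxipl followed at 75.6 ± 1.52, and its lowest saline mouse (74.7) lay above every saline value of Acly, Srebf1, Me1 and Elovl6 but not of Fasn. Fasn (66.1 ± 44.3), Acly (50.7 ± 16.4), Srebf1 (50.3 ± 19.1), Me1 (42.3 ± 10.3) and Elovl6 (41.8 ± 20.9) overlapped with each other over the saline mice, as did Scd1 and Thrsp. The carboxylases were lowest and overlapped, with Acacb at 10.1 ± 4.05 and Acaca at 8.64 ± 1.96. In Pico Scd1 (1658 ± 824) and Thrsp (639 ± 486) were again highest and Acaca (11.7 ± 4.33) lowest. In V4 Thrsp stood first at 1106 ± 910 and Scd1 second at 417 ± 186, and both carboxylases were lowest (Acaca 1.58 ± 0.502, Acacb 1.5 ± 0.770).

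Between V4 and TruSeq the CPM differed with the length of the transcripts. The members with the longest annotated transcripts, Fasn (9587 bases), Acaca (9513) and Acacb (8788), had lower CPM in V4 than in TruSeq in the same mice, by log2 differences of -1.95 ± 0.36, -2.65 ± 0.38 and -2.94 ± 0.49 (SD, n = 6 mice). Thrsp, the shortest at 1277 bases, had more, by 1.08 ± 0.04. Over all genes the median difference was -2.29 for the 656 genes with transcripts over 7000 bases and 0.68 for the 2275 under 2000 bases. Srebf1 (4299 bases, 0.12 ± 0.23) and Me1 (3292 bases, -0.02 ± 0.18) were near equal in both kits. Both lay above genes of like length, whose median differences were -0.61 at 3345.5 bases, -0.87 at 3865 bases and -1.28 at 4498 bases. Between Pico and TruSeq the same 3 long members were higher in Pico, by 0.55 to 0.67, beside a median of 0.89 for genes over 7000 bases. Thrsp was higher in Pico as well, by 0.29 ± 0.15, against a median of -0.34 for genes under 2000 bases. The V4 counts of Acaca and Acacb were as low as 38 in 1 library, and their log2 fold changes had wider standard errors there than in TruSeq or Pico.

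**Figure D4:**
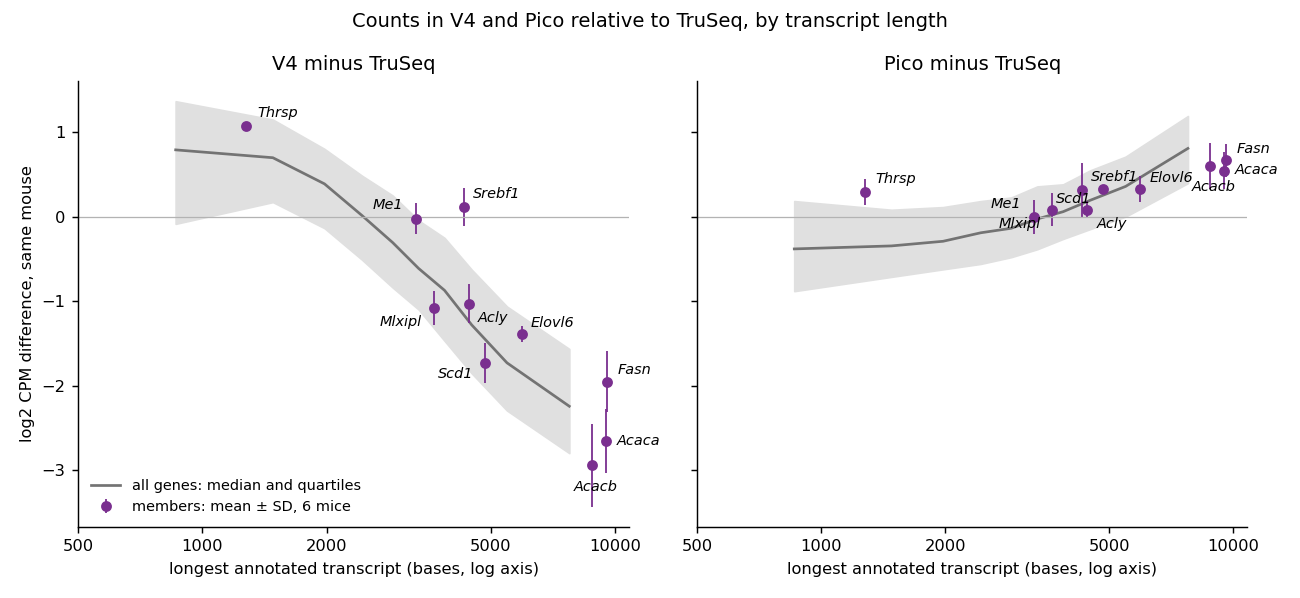
Log2 difference in CPM between V4 and TruSeq (left) and between Pico and TruSeq (right) for the members (purple, mean ± SD over 6 mice) against the longest annotated transcript in bases (log axis), over the median and quartiles of all 8960 genes in 10 length classes (grey). Thrsp sits at 1.08 and Acacb at -2.94 in the left panel, and the slope of the grey line is the opposite in the right panel.

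The genes around the pathway were read from 10 lists and described by counts. Of all genes tested, 21.8% were called lower and 12.3% higher in TruSeq. The shares were 10.8% and 6.78% in Pico, and 7.41% and 3.6% in V4. Sugar uptake and glycolysis had the most genes called lower: 7 of 8 genes were lower in TruSeq, 6 in Pico and 6 in V4, and 0 were higher, with a median log2 fold change of -0.86, -0.87 and -0.88. Slc2a2, the glucose transporter GLUT2, had 568 to 870 TruSeq counts after IL-1β against 3226 to 4257 after saline, a log2 fold change of -2.34 ± 0.16 (adjusted p = 9.8e-06), with -1.69 in Pico and -2.25 in V4. Pklr, liver pyruvate kinase and a ChREBP target, fell by 1.59 ± 0.35 on the log2 scale (adjusted p = 0.00654), and was also called in Pico (-1.30) and V4 (-1.34). Without mouse I9583 only 3 genes of this list were called in TruSeq.

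The list for control of acetyl-CoA carboxylase had 4 of 8 genes lower in TruSeq, 4 in Pico and 2 in V4, where 1 was higher. Mid1ip1, which encodes a partner that promotes polymerization of the carboxylase and is a relative of Thrsp, had 102 to 155 TruSeq counts after IL-1β against 423 to 1033 after saline, with a log2 fold change of -2.62 ± 0.37 (adjusted p = 0.00054), and -2.88 in Pico and -2.87 in V4. Thrsp itself had positive values (0.31, 0.21 and 0.35) that were not called in those libraries. Mlycd, which breaks down malonyl-CoA, had 441 to 541 counts against 927 to 1045 (adjusted p = 0.000159) and was called in all 3 kits. Prkaa2, a catalytic subunit of the kinase that switches the carboxylase off, fell by 1.14 ± 0.16 (adjusted p = 0.000566) and was called in TruSeq and Pico. Genes whose products favour and genes whose products oppose malonyl-CoA were thus among those that fell.

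Upstream of SREBP-1c, the insulin signalling list had 2 of 10 genes lower in each kit and 0 higher. Of all genes, 21.8% were lower in TruSeq, 10.8% in Pico and 7.41% in V4, so the TruSeq count was near the share of all genes. Irs1, an adaptor of the insulin receptor, had 37 to 46 TruSeq counts after IL-1β against 223 to 391 after saline (log2 fold change -2.71 ± 0.28, adjusted p = 9.41e-05). Its V4 counts were 0 in all 3 IL-1β libraries against 16 to 44 in the saline libraries. Pik3r1 had a log2 fold change of -0.63 ± 0.17 in TruSeq (adjusted p = 0.0152) and was called in Pico as well. With TMM factors 4 genes of the list were called in TruSeq. Among the proteins that carry and cut SREBP, 2 of 6 were lower and 1 higher in TruSeq, 1 lower in Pico and 0 called in V4. Scap, the escort, had a log2 fold change of -0.51 ± 0.13 (adjusted p = 0.0129), Insig1, the anchor in the endoplasmic reticulum, -0.42 ± 0.09 (adjusted p = 0.00683), and Srebf2, the cholesterol counterpart of Srebf1, 0.50 ± 0.15 (adjusted p = 0.0261).

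Of the partner and upstream factors 1 of 12 was lower and 3 higher in TruSeq, 3 lower and 2 higher in Pico, and 2 lower in V4. Ppargc1b, a coactivator of SREBP-1c, was low in reads, with 5 to 13 TruSeq counts after IL-1β against 45 to 61 after saline (log2 fold change -2.54 ± 0.35, adjusted p = 0.000543), and was called in all 3 kits. Nr1h2, the liver X receptor β, had 0.78 ± 0.15 (adjusted p = 0.00301) and Sp1 0.62 ± 0.12 (adjusted p = 0.00337) in TruSeq. The list for citrate, acetyl-CoA and NADPH had 2 of 8 lower and 1 higher in TruSeq, 1 lower in Pico, and 1 lower and 1 higher in V4. Its TruSeq counts were near the shares of all genes (21.8% lower and 12.3% higher). Pgd of the pentose phosphate pathway had 0.72 ± 0.15 (adjusted p = 0.00553), Mdh1 -0.39 ± 0.09 (adjusted p = 0.00998) and Idh1 -0.38 ± 0.10 (adjusted p = 0.0128). Idh1 was called in all 3 kits.

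Downstream, the other desaturases and elongation enzymes had 6 of 12 lower and 1 higher in TruSeq, 5 and 1 in Pico, and 3 and 1 in V4. Fads2, the delta-6 desaturase, had a log2 fold change of -0.77 ± 0.12 (adjusted p = 0.000882) and Cyb5, the electron donor of the desaturases, -0.71 ± 0.08 (adjusted p = 0.000181), and both were called in all kits. Scd2 had -0.81 ± 0.25 and was called in TruSeq (adjusted p = 0.0325). In acyl-CoA and triglyceride synthesis 2 of 12 genes were lower and 2 higher in TruSeq, 3 and 2 in Pico, and 4 and 1 in V4. The TruSeq count of lower genes did not exceed the share of all genes (21.8%). Acsl1, which activates fatty acids, had 3021 to 4369 TruSeq counts after IL-1β against 15387 to 17197 after saline (log2 fold change -2.16 ± 0.13, adjusted p = 5.18e-06). Gpam, the first acyltransferase and an SREBP-1c target, had -1.58 ± 0.23 (adjusted p = 0.0006), and both were called in all kits. Lpin1, a phosphatidate phosphatase, had 1.28 ± 0.37 (adjusted p = 0.0243) and was called higher in TruSeq and Pico.

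Lipid droplet proteins and lipases moved both ways, with 4 of 12 lower and 3 higher in TruSeq, 4 and 2 of 11 in Pico, and 2 and 1 of 12 in V4. Plin4, a droplet coat protein, rose from 106 to 189 TruSeq counts after saline to 1073 to 1280 after IL-1β (log2 fold change 3.03 ± 0.18, adjusted p = 4.68e-06), and Cidec, which fuses droplets, had 2.54 ± 0.27 (adjusted p = 0.000114). G0s2, the inhibitor of the main triglyceride lipase, had -2.57 ± 0.39 (adjusted p = 0.000869). Genes of the fasted liver gave 2 of 9 lower and 3 higher in TruSeq, 3 and 1 in Pico, and 3 and 3 in V4. The TruSeq count of lower genes was near the share of all genes (21.8%). G6pc, glucose-6-phosphatase, had -2.78 ± 0.49 (adjusted p = 0.002), Igfbp1 2.38 ± 0.56 (adjusted p = 0.00884) and Fgf21 2.02 ± 0.69 (adjusted p = 0.0467), so the list held changes in both directions. Fgf21 was low in reads, with 7 to 26 TruSeq counts after IL-1β against 2 to 9 after saline, which overlapped. It was called in V4 as well but not in Pico (adjusted p = 0.303).

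**Figure D5:**
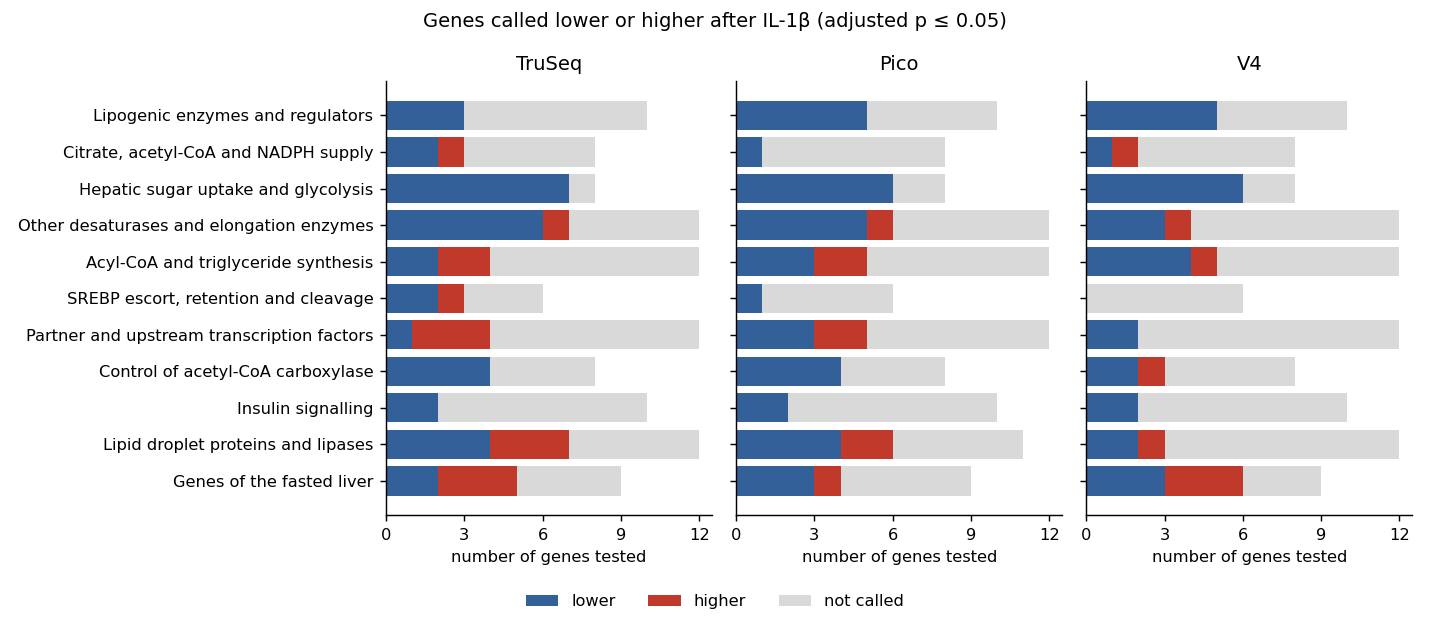
Number of genes called lower (blue), called higher (red) or not called (grey) after IL-1β in each list, by kit, at an adjusted p of at most 0.05. The sugar list has 7 of 8 genes lower in TruSeq and 6 of 8 in both other kits, and the SREBP escort list has no call in V4.

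The cell types of the liver were followed by their markers. The summed level of 5 hepatocyte markers was 66493 to 69939 CPM in the IL-1β libraries of TruSeq and 88505 to 106924 in the saline libraries, and 2 of the 5 were called lower. That of 6 neutrophil markers was 36.5 to 75.0 against 1.56 to 2.77, with 4 of 6 called higher in every kit and Ly6g at 3 counts or fewer in every library. The Kupffer cell (52.6 to 78.3 against 108 to 180), endothelial (58.4 to 80.5 against 135 to 154) and stellate markers (144 to 190 against 276 to 312) were lower in sum in TruSeq, where 4 of 6, 4 of 5 and 4 of 5 were called lower. Against these sums, Marco of the Kupffer cell list was called higher in TruSeq (log2 fold change 1.30, adjusted p = 0.0073), and Lyve1 of the endothelial list in TruSeq (0.94, adjusted p = 0.000409) and Pico (1.65, adjusted p = 9.48e-05). Apob of the hepatocyte list had positive values in TruSeq, Pico and V4 (0.21, 0.22 and 0.13) and was called higher in Pico (adjusted p = 0.00103). Alb had the most counts of that list, with a TruSeq mean of 619106 after IL-1β and 977670 after saline. In TruSeq the 3 lymphocyte markers were at 0.403 to 0.724 against 1.24 to 2.61. Of the 6 markers of adipocytes, which also express these enzymes, Adipoq, Plin1, Lep and Retn had 3 counts or fewer in every library of every kit or were not listed, and the sum of the 6 was at most 13.7 CPM. Adrb3 of the same list had 8 to 12 TruSeq counts after IL-1β against 58 to 83 after saline (adjusted p = 0.000232) and was also called lower in Pico (adjusted p = 0.0268), and the sum of the 6 in TruSeq was 1.05 to 3.64 against 5.39 to 6.80 CPM. The part that the marker changes had in the members' response was not tested.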

How the data were processed

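Per the file headers and the study's methods, the deposited values are read counts per gene that the authors made by alignment to mm9 with GSNAP, removal of ribosomal reads, resampling to equal depth within each kit and counting with PORT, with reads held to annotated junctions. Pico and TruSeq counts are sense reads, V4 counts hold both strands, and the 3 tables were normalized separately. Each kit was fitted with limma-voom (limma 3.58.1, R 4.3.3) on library totals over genes with at least 1 count, with Benjamini-Hochberg adjustment over all genes, and differences between kits as an interaction over 12 libraries. The fits were tested on simulated data. Alternatives were TMM factors, edgeR 4.0.16 (quasi-likelihood), DESeq2 1.42.0, a filter of 10 counts in 3 libraries, no filter, other thresholds, leaving out each mouse, the mouse as a block, and another length. The mouse numbers in the labels pair the libraries: deviations from the treatment mean correlated for the same mouse by a median of 0.354 (Pico and TruSeq), 0.299 (V4 and TruSeq) and 0.153 (Pico and V4), and between -0.340 and -0.021 for other mice. Deviations of the 3 mice of a treatment sum to 0 in each gene, so the negative values are no separate evidence for the pairing. Coordinates and lengths come from GENCODE M1 on NCBIM37 (mm9), and promoters from RefSeq on GRCm38.p6. The members, lists and markers were chosen with earlier results of these data known. Of each other list, up to 3 genes are named, those with the largest change in TruSeq among those called there with 1 sign in all kits. Splice forms, intronic reads and antisense counts were not analysed here. A listed gene that the rule for named genes would have named is not reported here.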

Additional observations from a re-analysis of the deposited data

How the results depend on the processing

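Srebf1 was called lower in all 3 kits under each of the 11 alternatives per kit. The alternative without a filter could not change a value, since each listed gene had at least 1 count. The call of Mlxipl was lost in 5 of 11 in V4 and in 0 in TruSeq and Pico. Those of Acaca were lost in 0 of 11 in TruSeq, 2 in Pico and 4 in V4. Fasn and Acly held calls in Pico and V4 only. Fasn lost them in 6 and 4 of 11 there, and Acly in 7 and 5 of 11. No called value turned its sign. Over all members 33 of 330 values lost a call and 6 gained a call. The 330 include the values of members in kits where they held no call to lose. Members that were called in neither setting changed sign in 30 of the 330, with values such as 0.40 in place of -0.02 for Elovl6 in Pico and -0.31 in place of 0.31 for Thrsp in TruSeq. In Pico edgeR called Scd1 (adjusted p = 6.76e-05) and Acacb (adjusted p = 0.00454), although the treatments overlapped. The cause of these changes was not tested.

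The members called in TruSeq were 5 in place of 3 with the filter of 10 counts and at a threshold of 0.1. The share of all genes called in TruSeq with that filter or at 0.1 is not given here. The rise to 5 thus has no background beside it. In Pico 3 members in place of 5 were called with DESeq2, where all genes called were 1473 lower and 1556 higher. At 0.01 the members called were 3 in Pico and 1 in V4. Leaving out 1 mouse gave 3 to 4 in TruSeq, 2 to 4 in Pico (2 without I9582 or I9583, 3 without S9575 or S9576) and 1 to 4 in V4 (1 without I9582, I9583 or S9575, 3 without S9576). All genes called came to 4081 in TruSeq, 1884 in Pico and 764 in V4 at 0.01, and to 2982 in V4 at 0.1, and without 1 mouse to 5114 to 5606, 1765 to 2603 and 908 to 2093. With TMM factors the calls lower were 3127 and higher 3241 in TruSeq in place of 4232 and 2382, 1478 and 1658 in Pico in place of 1951 and 1228, and 874 and 864 in V4 in place of 1337 and 649.

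In TruSeq the supply list had 1 call with TMM factors, edgeR or DESeq2, the sugar list 4 at 0.01, the SREBP escort list 1 with TMM factors and at 0.01, and the insulin list 4 with TMM factors, edgeR, DESeq2 or at 0.1 and 1 at 0.01. Without 1 mouse the sugar list had 3 to 7, the escort list 1 to 3, the insulin list 1 to 2 and the fasting list 3 to 5. In Pico and V4 87 of 260 list counts moved by over 1.5 times. Levels per length by the longest transcript moved by over 1 SD in 4 of 30.

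With the mouse as a replicate block 0 members were called for a difference between kits after adjustment (lowest adjusted p = 0.664). Over all genes 1 was called for Pico and TruSeq and 0 for the other pairs. Before adjustment the blocked intervals of Fasn and Mlxipl did not include 0 in 2 pairs each. Between V4 and TruSeq they ended close to 0, at -0.02 for Fasn and 0.0013 for Mlxipl. Of 330 member differences under the alternatives 0 were called. The V4 counts limit what can be said of the long transcripts Acaca and Acacb, and 3 mice per treatment limit all tests. Dropping the minimum of 1 count changed nothing, since each gene listed had 1.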

Other observations

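Chosen after the values were seen, the ratio of Fasn to Elovl6 counts within a library gives another view of the spread between saline mice. In TruSeq the ratio was 1.35 to 1.51 in the IL-1β libraries and 1.99 to 2.94 in the saline libraries, in Pico it was 1.44 to 1.98 against 2.85 to 3.78, and in V4 it was 0.747 to 0.935 against 1.90 to 2.03. The treatments did not overlap in any kit, while the Fasn counts themselves did in TruSeq and Pico. The ratio of Fasn to Thrsp counts behaved alike, with 0.421 to 0.504 against 0.858 to 1.27 in TruSeq, 0.504 to 0.735 against 1.08 to 1.57 in Pico and 0.0352 to 0.0583 against 0.108 to 0.217 in V4. The ratio of Thrsp to Elovl6, both called in no kit, overlapped in every kit (2.99 to 3.27 against 1.57 to 3.42 in TruSeq). The ratio of Acaca to Elovl6 was 0.154 to 0.171 against 0.288 to 0.538 in TruSeq and did not overlap in any kit, and that of Acly to Elovl6 overlapped in all 3. A ratio within a library shows unequal change of its genes and not which of them changed, and no test was made of it.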
